A study of Mus musculus with 9 samples.

Results

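A group of 9 genes that move iron into, within and out of cells was measured in the mouse yolk sac at embryonic day 9.5. They were chosen by name and role: Tfrc and Slc11a2 for uptake, Slc25a37, Abcb10 and Glrx5 for mitochondrial iron, Slc25a38, Tmem14c and Abcb6 for the carriers that serve heme synthesis, and Slc40a1 for export. The choice was made with earlier results of these data known, so counts of these genes beside all genes are descriptions only. All 9 had 1 probe set that named no other gene, out of 19933 genes with such a probe set, and all 9 were among the 13207 genes tested. The yolk sacs came from embryos of a mixed SV 129/C57BL/6 background that were knockout (KO, Rnh1-/-), heterozygous (HET, Rnh1+/-) or wild type (WT, Rnh1+/+) for Rnh1, the gene of the cytosolic ribonuclease inhibitor, with no treatment and 3 arrays per genotype. The labels do not give the deleted part of Rnh1, the sex of the embryos, or whether an RNA sample was 1 yolk sac or a pool, so the p-values here cover the spread among these arrays alone, and that spread may be technical. Values are log2 signals of an Affymetrix whole-transcript gene array, and the number of arrays limits the precision.

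Iron reaches most cells bound to transferrin, which is taken up by the transferrin receptor and released in the endosome, where a membrane carrier passes the iron to the cytosol. In red cell precursors most of it goes on to mitochondria, where it is built into iron-sulfur clusters and, in the last step of heme synthesis, into protoporphyrin. The yolk sac at this stage holds primitive red cells in its vessels and an outer layer of visceral endoderm, an absorptive epithelium that takes up nutrients for the embryo and passes iron on through the exporter ferroportin.

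Promoter sequences are shown for the members that passed the test in KO against WT and have an entry in the RefSeq promoter table of build GRCm38.p6. Of the 9 genes 6 matched (Tfrc, Slc25a38, Abcb10, Abcb6, Tmem14c and Glrx5), in 7 windows because Tfrc has 2 starts. Slc11a2, Slc40a1 and Slc25a37 are named only. Each line gives the 250 bases before the listed start, for Tfrc the farther downstream of its starts. Capitals mark matches on either strand to ACGTG, the core of the element bound by hypoxia-inducible factors, to CCNCNCCC, a CACC element of the kind bound by Krüppel-like factors, or to AGATAA, with T also allowed as its first base and G as its last, the word bound by GATA factors.
Tfrc, chr16:32608872-32609121, plus strand: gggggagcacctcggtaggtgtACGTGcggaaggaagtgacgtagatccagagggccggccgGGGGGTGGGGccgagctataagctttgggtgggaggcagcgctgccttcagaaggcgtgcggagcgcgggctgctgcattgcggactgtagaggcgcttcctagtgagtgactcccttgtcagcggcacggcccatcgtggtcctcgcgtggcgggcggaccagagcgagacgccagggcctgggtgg
Abcb10, chr8:123983123-123983372, minus strand: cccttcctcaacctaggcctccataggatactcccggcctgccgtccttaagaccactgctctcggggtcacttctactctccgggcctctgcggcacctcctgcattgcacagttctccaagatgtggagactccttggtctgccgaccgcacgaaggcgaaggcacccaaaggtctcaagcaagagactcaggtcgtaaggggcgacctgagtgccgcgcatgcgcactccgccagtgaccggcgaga
Abcb6, chr1:75180393-75180642, minus strand: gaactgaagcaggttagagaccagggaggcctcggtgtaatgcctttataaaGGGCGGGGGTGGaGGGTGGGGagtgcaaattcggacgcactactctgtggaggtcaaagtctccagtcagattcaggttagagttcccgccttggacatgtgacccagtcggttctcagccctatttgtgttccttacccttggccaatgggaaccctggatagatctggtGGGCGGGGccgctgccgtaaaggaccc

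The Tfrc window shown held 1 match to ACGTG and 2 overlapping matches to CCNCNCCC, while the window of its other start, not shown, held none to ACGTG and 3 to CCNCNCCC, and the Abcb6 window held 4 matches to CCNCNCCC, some of which overlap. The Abcb10 window held no match. None of the 7 windows held a GATA word. Over all 32851 windows of the same length in the table, 16.6% held ACGTG, 45.9% held CCNCNCCC and 26.5% held a GATA word. These are matches of letters only.

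Rnh1 itself had log2 signals of 6.28, 6.78 and 6.87 on the KO arrays, 9.75, 9.75 and 9.77 on the HET arrays and 10.39, 10.42 and 10.32 on the WT arrays, so the arrays followed their labels. No array of one genotype reached the range of another, and a two-sided exact permutation test gave p = 0.1 for each pair of genotypes, its floor with 3 arrays against 3. Visceral endoderm markers were bright on every array, with a list mean over 21 genes of 11.02 to 11.24 in KO, 11.38 to 11.52 in HET and 11.44 to 11.49 in WT. The erythroid list mean over 19 genes was 9.28 to 9.84 in KO, 9.80 to 10.19 in HET and 9.92 to 10.17 in WT. Both marker levels were thus lower on all KO arrays than on all WT arrays, and in whole tissue fewer cells of a type and less RNA per cell cannot be told apart. Extraembryonic mesoderm markers ran the other way, with a list mean over 12 genes of 10.55 to 10.60 in KO, 10.34 to 10.40 in HET and 10.35 to 10.44 in WT. Of these 12 genes 5 were higher, 1 was lower and 6 did not pass in KO against WT (limma adjusted p under 0.05). The part of this mesoderm in the results was not tested. In the same comparison 7 of 21 endodermal markers fell and 14 did not pass, and 10 of 19 erythroid markers fell and 9 did not pass. Among all genes tested 15.2% fell and 8.27% rose. KO 1 and WT 2 stood apart from the other arrays on principal component 2, at -20.30 and -11.59 against 0.08 to 12.74 for the remaining 7. Xist was high on all KO arrays (11.05 to 11.67) but on 1 of 3 HET arrays (10.56, against 5.15 and 5.76) and 2 of 3 WT arrays (10.65 and 11.00, against 5.69), and the Y-linked gene Eif2s3y was 4.41 to 7.62 in KO, 7.87 to 8.68 in HET and 4.34 to 8.81 in WT, so these sex-linked transcripts were not balanced between the genotypes.

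In KO yolk sacs 5 of the 9 iron genes were lower than in WT and none was higher. The falls were in both uptake genes (Tfrc and Slc11a2), the transporters Abcb10 and Abcb6, and the exporter Slc40a1. The largest were Slc40a1, at 57.7% of the WT level, and Tfrc, at 60.1%. Among all genes tested 23.5% passed in the same comparison (limma, Benjamini-Hochberg adjusted p under 0.05), with 15.2% lower and 8.27% higher. Of the genes that passed 64.8% were lower, or 81.4% when each array was first centred on its median, a scaling that changed no call among the 9 iron genes. All 9 iron genes had a log2 difference below 0, as 50.8% of all genes did, and their median difference was -0.38, against -0.0046 over all genes.

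**Figure D1:**
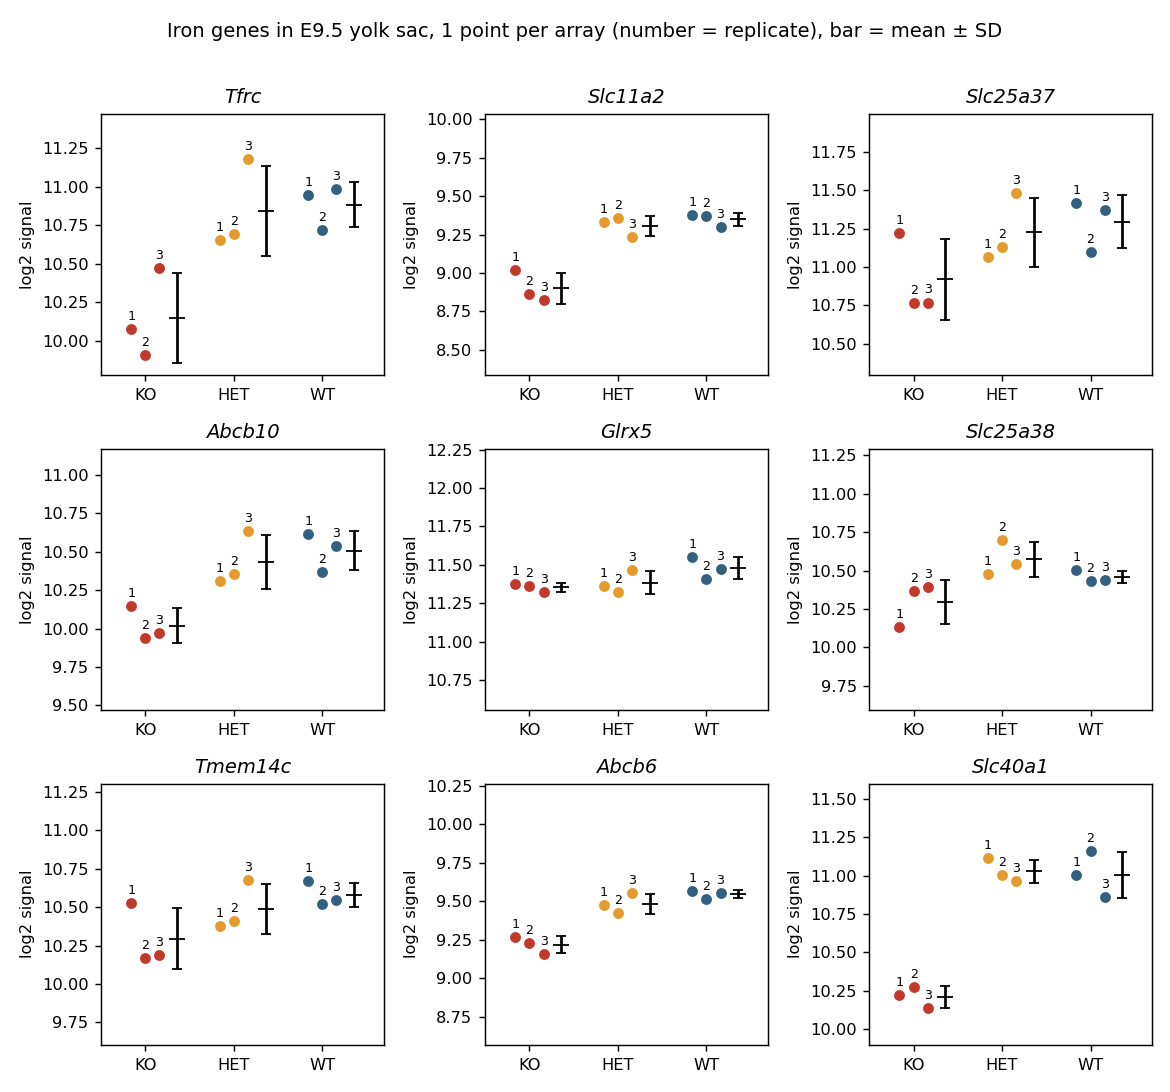
Log2 signal (vertical axis, the same span of 1.7 in every panel) of the 9 iron genes in KO, HET and WT yolk sacs, with 1 point per array, the replicate number above it, and the mean ± SD of each genotype beside the points. For Slc40a1 the 3 KO arrays lie at 10.14 to 10.28, below all HET and WT arrays, while for Slc25a37 and Tmem14c the KO 1 array lies among the WT arrays.

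Tfrc encodes the transferrin receptor, the gate for transferrin-bound iron. It had 10.07, 9.90 and 10.47 in KO, 10.65, 10.69 and 11.18 in HET and 10.95, 10.72 and 10.99 in WT (log2 signal). All KO arrays lay below all HET and WT arrays, and KO 3 was the nearest to them. The KO minus WT difference was -0.74 ± 0.17 (log2, SE, limma adjusted p = 0.017, n = 3 arrays each). The call was lost without KO 2 (-0.61, limma adjusted p = 0.0578), without WT 1 (-0.70, adjusted p = 0.0596) or without WT 3 (-0.68, adjusted p = 0.0508). Trophoblast, which also carries the transferrin receptor, was represented by 4 tested genes of 10 listed, with a list mean of 8.31 to 9.50 in KO, 7.88 to 8.30 in HET and 7.91 to 8.20 in WT. Of these 4 genes 1 rose and 3 did not pass in KO against WT, where 8.27% of all genes rose. Hand1 belongs to both this list and the extraembryonic mesoderm list, so the 2 list means are not independent. The highest trophoblast mean and the highest Tfrc among the KO arrays were both on KO 3. Of the defining trophoblast markers, Ctsq was dim on every array (3.46 to 3.67), and Tpbpa was bright on KO 3 alone, at 7.84 there against 4.26 to 5.90 on the 8 others, and was not tested. The part of trophoblast in the Tfrc values was not tested.

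Slc11a2 encodes DMT1, the carrier that passes iron from the endosome to the cytosol in red cell precursors and from the lumen in absorptive epithelia. It had 9.02, 8.86 and 8.82 in KO, 9.33, 9.36 and 9.24 in HET and 9.38, 9.37 and 9.30 in WT. The KO arrays lay apart below the 6 others. The KO minus WT difference was -0.45 ± 0.07 (log2, SE, limma adjusted p = 0.00306). It passed without any single array, with adjusted p from 0.00272 to 0.0186.

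Of the genes of mitochondrial iron, Abcb10 passed the test and Slc25a37 and Glrx5 did not. Slc25a37 encodes mitoferrin 1, which brings iron into mitochondria of red cell precursors. It had 11.22, 10.77 and 10.77 in KO, 11.07, 11.13 and 11.48 in HET and 11.41, 11.10 and 11.37 in WT. KO 1 lay above WT 2, so the groups overlapped, and the KO minus WT difference of -0.38 ± 0.15 did not pass (limma adjusted p = 0.108). Without KO 1 the difference was -0.53 and passed (adjusted p = 0.0254), and without both WT 2 and KO 1 it was -0.62 (adjusted p = 0.0183). Without any other single array it did not pass. Over all single arrays left out it ranged from -0.53 to -0.30 (limma adjusted p from 0.0254 to 0.274).

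Abcb10 encodes a transporter of the inner mitochondrial membrane that stabilises mitoferrin 1. It had 10.15, 9.94 and 9.97 in KO, 10.31, 10.36 and 10.64 in HET and 10.61, 10.37 and 10.54 in WT. All KO arrays lay below all others, with KO 1 the highest of the KO arrays. The KO minus WT difference was -0.49 ± 0.10 (log2, SE, limma adjusted p = 0.0114), and it passed without any single array (adjusted p from 0.00749 to 0.0487). Glrx5, a glutaredoxin that hands on iron-sulfur clusters and whose loss in zebrafish blocks heme synthesis, differed least between KO and WT. It had 11.37, 11.37 and 11.32 in KO, 11.36, 11.33 and 11.47 in HET and 11.55, 11.41 and 11.48 in WT. The KO arrays lay just below the WT arrays and overlapped the HET arrays, and the KO minus WT difference of -0.13 (95% interval -0.27 to 0.01) did not pass (limma adjusted p = 0.166).

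Of the carriers that serve heme synthesis, Abcb6 passed and Slc25a38 and Tmem14c did not. Abcb6 encodes a porphyrin transporter of mitochondrial and other membranes. It had 9.27, 9.23 and 9.16 in KO, 9.47, 9.42 and 9.55 in HET and 9.57, 9.52 and 9.55 in WT, with no overlap between KO and the others. The KO minus WT difference was small but tight, -0.33 ± 0.06 (log2, SE, limma adjusted p = 0.00538, and 0.00592 to 0.0291 without any 1 array). Tmem14c, needed in mouse for the import of protoporphyrinogen into mitochondria, had 10.53, 10.17 and 10.19 in KO, 10.38, 10.41 and 10.67 in HET and 10.67, 10.52 and 10.55 in WT. As for Slc25a37, KO 1 lay above WT 2, and the KO minus WT difference of -0.28 ± 0.11 did not pass (adjusted p = 0.1002). Without KO 1 it was -0.40 and passed (adjusted p = 0.019), and without WT 2 and KO 1 it was -0.43 (adjusted p = 0.0305). No other single omission made it pass. Over all single arrays left out the Tmem14c difference ranged from -0.40 to -0.22 (limma adjusted p from 0.019 to 0.263).

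Slc25a38 encodes the mitochondrial glycine carrier that feeds the first step of heme synthesis. It had 10.13, 10.37 and 10.39 in KO, 10.48, 10.70 and 10.54 in HET and 10.50, 10.43 and 10.44 in WT. Here KO 1 was the lowest array, unlike for Slc25a37 and Tmem14c. The KO arrays all lay below the WT arrays, but the difference of -0.16 ± 0.09 (95% interval -0.35 to 0.03) did not pass (limma adjusted p = 0.199).

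Slc40a1 encodes ferroportin, the cellular iron exporter, which the visceral endoderm carries. It had 10.22, 10.28 and 10.14 in KO, 11.11, 11.00 and 10.96 in HET and 11.00, 11.16 and 10.86 in WT. The KO arrays lay within 0.14 of each other, and the gap to the lowest of the 6 other arrays was wider than the spread within any genotype. The KO minus WT difference had a 95% interval of -0.98 to -0.60 and passed without any single array (limma adjusted p from 0.00238 to 0.00871). Its p ranked 53 of 13207 genes, the lowest rank of the 9 genes. Macrophages also carry ferroportin. Their list mean over 6 tested genes of 12 was 7.62 to 7.88 in KO, 8.03 to 8.24 in HET and 8.01 to 8.26 in WT, with the defining markers Adgre1, Ptprc, C1qb and Fcgr1 too dim to be tested, and the part of macrophages in the Slc40a1 values was not tested.

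In all, 7 of the 9 genes had every KO array below every WT array, as 24.7% of all genes tested did. The exceptions were Slc25a37 and Tmem14c.

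The KO arrays of a gene were not ordered alike. KO 1 exceeded the mean of KO 2 and KO 3 by 0.45 for Slc25a37, 0.35 for Tmem14c, 0.19 for Abcb10, 0.17 for Slc11a2, 0.08 for Abcb6, 0.03 for Glrx5 and 0.01 for Slc40a1, and the same measure was -0.12 for Tfrc and -0.25 for Slc25a38 (log2). For the marker means it was 0.54 (erythroid), 0.20 (macrophage) and 0.07 (visceral endoderm). By this measure the heme carrier Slc25a38 and, to a lesser degree, Tfrc ran against the erythroid marker mean within KO. Slc11a2 and Abcb10 had nearly the same value as each other. Among HET arrays the erythroid marker mean, Slc25a37, Tmem14c, Abcb10, Tfrc, Abcb6 and Glrx5 were highest on HET 3, whereas Slc40a1, Slc11a2 and the endodermal marker mean were lowest there and Slc25a38 was highest on HET 2. This is a description of single arrays, with no test.

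**Figure D2:**
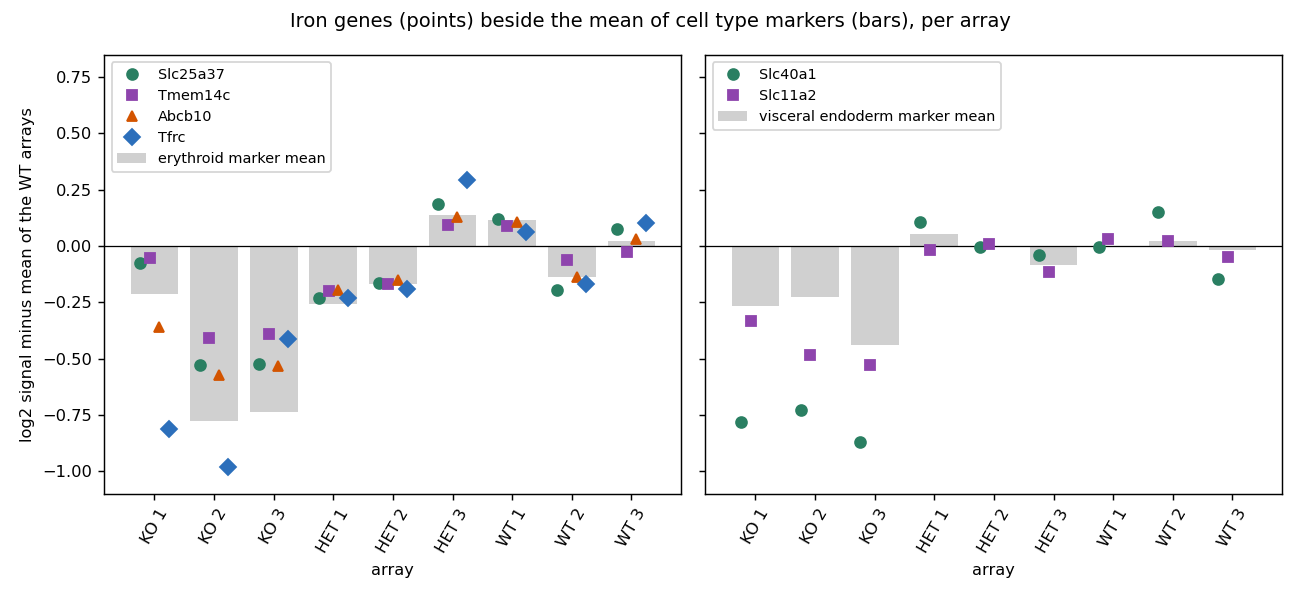
Log2 signal minus the mean of the 3 WT arrays (vertical axis) for each array (horizontal axis). Bars give the mean of the erythroid markers (left) or visceral endoderm markers (right), and points give Slc25a37, Tmem14c, Abcb10 and Tfrc (left) or Slc40a1 and Slc11a2 (right), with Slc25a38, Abcb6 and Glrx5 not drawn. Slc25a37 and Tmem14c lie at -0.07 and -0.05 on KO 1, where the erythroid markers lie at -0.21, while Slc40a1 lies at -0.73 to -0.87 on all 3 KO arrays.

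Slc40a1 was then set against each other gene as the within-array difference of log2 signals, whose change between genotypes shows unequal change and says nothing of levels. Slc40a1 fell more than all 8 others on the mean values. The difference Slc40a1 minus Slc11a2 was 1.31 ± 0.10 in KO and 1.66 ± 0.12 in WT (SD, n = 3 arrays each), and Slc40a1 minus Glrx5 was -1.14 ± 0.05 in KO and -0.47 ± 0.19 in WT. All KO arrays lay below all WT arrays in this measure for 5 of 8 genes (Slc11a2, Slc25a38, Abcb6, Tmem14c and Glrx5), against 94.7% of all genes tested. For Tfrc the difference was 0.06 ± 0.36 in KO and 0.12 ± 0.29 in WT, and the arrays overlapped, so that no unequal change of Tfrc and Slc40a1 was detectable. For Slc25a37 and Abcb10 the arrays overlapped too, at -0.71 ± 0.26 in KO and -0.29 ± 0.30 in WT for Slc25a37, and at 0.19 ± 0.14 in KO and 0.50 ± 0.25 in WT for Abcb10.

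The 2 marker means were also entered as covariates of the fit, one at a time. They differ between the genotypes themselves (erythroid 9.48 in KO and 10.05 in WT, endodermal 11.15 in KO and 11.46 in WT), so a covariate and the genotype share much of their variation. With the erythroid mean, Slc40a1 kept its call in KO against WT (-0.88 ± 0.14, limma adjusted p = 0.0159). Under the same setting Tfrc stood at -0.51 (adjusted p = 0.305), Slc11a2 at -0.38 (0.0686), Abcb10 at -0.17 (0.35) and Abcb6 at -0.23 (0.132), none past the test, and the signs of Slc25a37 (0.17) and Tmem14c (0.10) turned. Slc25a38 went the other way, to a larger difference of -0.31 (limma adjusted p = 0.175). Glrx5 stood at -0.03 (0.889), and neither of them passed. In that fit 1155 of all genes passed (8.75%), against 3101 (23.5%) without the covariate, so calls were lost widely and not in these genes alone. With the endodermal mean, Slc40a1 stood at -0.52 (adjusted p = 0.253) and lost its call, while Tfrc stood at -1.67 ± 0.18 and passed (adjusted p = 0.0409). Abcb10 (-0.68, limma adjusted p = 0.268), Slc11a2 (-0.27, 0.437) and Abcb6 (-0.30, 0.369) also lost their calls, although the Abcb10 difference was larger than without the covariate. In that fit 7 of all 13207 genes passed, so the loss of a call there is shared by nearly all genes. The Tfrc value of -1.67 is larger in size than the deviation of any KO array from the WT mean (-0.81, -0.98 and -0.41). It therefore depends on the adjustment for a covariate that shares much of its variation with the genotype.

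**Figure D3:**
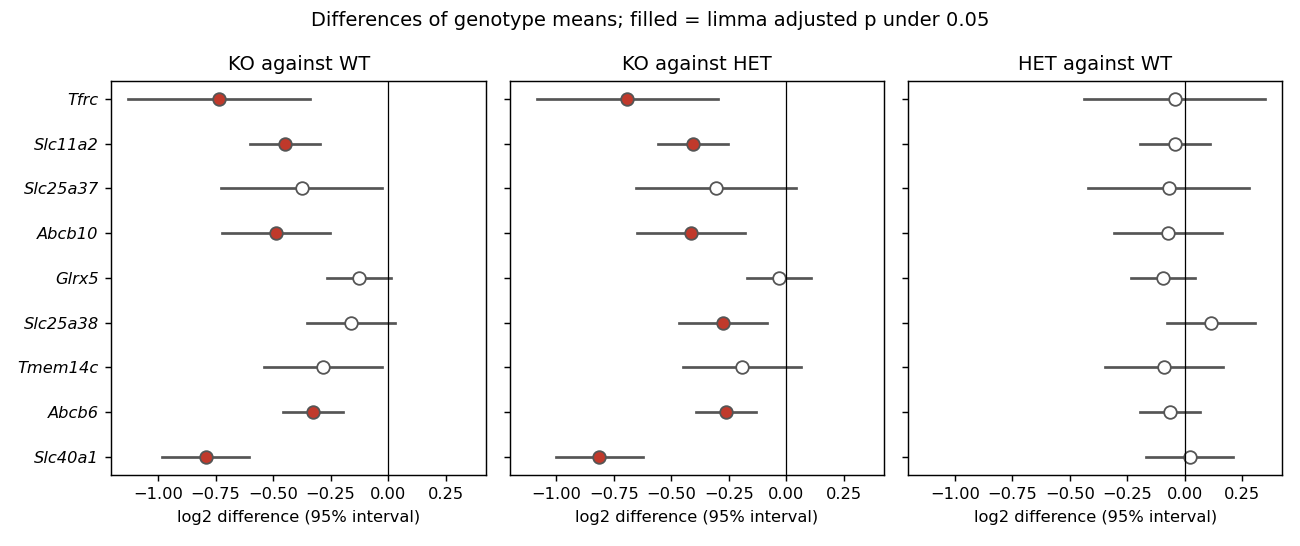
Log2 difference of genotype means (horizontal axis) for the 9 iron genes, with 95% intervals from limma, for KO against WT, KO against HET and HET against WT. Filled points passed at a limma adjusted p under 0.05. In KO against WT 5 genes are filled and in KO against HET 6, all below 0, and in HET against WT every interval spans 0.

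Against HET, which lacks 1 copy of Rnh1, 6 of the 9 genes were lower in KO and none was higher, where 21.8% of all genes passed, 13.6% lower and 8.17% higher. These comparisons share the KO arrays, so they are not independent of each other. Slc40a1 stood at -0.81 ± 0.08 (limma adjusted p = 9.29e-04), Tfrc at -0.69 ± 0.17 (adjusted p = 0.0225), Slc11a2 at -0.41 ± 0.07 (0.00424), Abcb10 at -0.42 ± 0.10 (0.0221) and Abcb6 at -0.26 ± 0.06 (0.0129). Slc25a38 was the sixth, at -0.28 ± 0.09 (adjusted p = 0.0481), a call that held when KO 3 was left out but was lost when any of the 8 others was (limma adjusted p of 0.0624 to 0.161), and with the replicate number as a block (adjusted p = 0.0518). In all, 20 of 26 alternative settings lost this call. They included no filter (limma adjusted p = 0.0741), quantile normalization (0.145), cyclic loess (0.0951), array weights (0.0664) and a fit of KO and HET alone (0.101). Tfrc lost its call without KO 1 (-0.65, adjusted p = 0.0516), KO 2 (-0.57, 0.0712) or HET 3 (-0.52, 0.0581), and Abcb10 without KO 2 (-0.37, 0.0682), KO 3 (-0.39, 0.0598) or HET 3 (-0.31, 0.0566). With the Xist level of each array as a covariate Abcb10 (-0.32, limma adjusted p = 0.199), Abcb6 (-0.21, 0.142) and Tfrc (-0.61, 0.165) did not pass against HET, and Tfrc did not pass against WT (-0.69, adjusted p = 0.052). With the Eif2s3y level in place of Xist, Abcb10 (-0.40, adjusted p = 0.071) and Abcb6 (-0.24, 0.0533) did not pass against HET, and Tfrc kept its call against WT. Slc25a38 lost its call against HET with Xist (-0.33, limma adjusted p = 0.128) and with Eif2s3y (-0.31, 0.0788). Calls against HET were lost widely, with 843 of all genes (6.38%) past the test with Xist and 1739 (13.2%) with Eif2s3y. Without a covariate 2875 (21.8%) passed. Slc25a37 (-0.31), Tmem14c (-0.19) and Glrx5 (-0.03) did not pass. The KO arrays did not overlap the HET arrays for the 6 genes that passed, as for 21.4% of all genes in this direction.

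Loss of 1 copy left no detectable difference in these genes. The same limma test did not call Rnh1 itself (-0.62 ± 0.13, log2, SE, adjusted p = 0.939), although its HET and WT arrays separated. The lack of a call in HET against WT therefore does not show that a gene was unchanged. Of the 9, 0 passed in HET against WT by limma, 0 had an unadjusted p under 0.05, and in 0 did the arrays separate. Over all 13207 genes 0 passed (0%), 327 (2.48%) had an unadjusted p under 0.05, 5.98% had all HET arrays below all WT arrays and 4.25% had all above. The largest log2 difference in size was that of Slc25a38, at 0.11 (95% interval -0.08 to 0.31). The intervals were narrow for Slc40a1 (-0.17 to 0.21) and Slc11a2 (-0.19 to 0.11) and wide for Tfrc (-0.44 to 0.35).

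Wider lists of iron and heme genes were counted in KO against WT, where 15.2% of all genes fell and 8.27% rose. In the transferrin cycle 4 of 7 tested genes fell (57.1%), 0 rose and 3 did not pass, with a list median of -0.45, and the number that fell was 3 to 5 when single arrays were left out. Tfrc and Slc11a2 belong to this list, and of the 5 others 2 fell, with a median of -0.27. Trf, transferrin itself, which the visceral endoderm secretes, had 12.13, 12.24 and 12.07 in KO, 12.75, 12.68 and 12.63 in HET and 12.64, 12.72 and 12.61 in WT, a KO minus WT difference of -0.51 ± 0.07 (limma adjusted p = 0.00186). Exoc6, an exocyst subunit whose mutation in mouse causes the hemoglobin-deficit anemia through poor recycling of the receptor, fell by 0.58 ± 0.08 (adjusted p = 0.0025). Tfr2, a second transferrin receptor, stood at -0.23 (adjusted p = 0.0641) and Snx3, a sorting factor that returns the receptor to the surface, at -0.12 (adjusted p = 0.185), and neither passed. Tfr2 was dim, at 6.30 to 6.45 in KO and 6.56 to 6.68 in WT. The level a gene had to exceed to be tested was 6.35 to 6.57, depending on the array. Hfe was too dim to be tested.

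Of 10 tested genes of export and other iron transport 3 fell, 1 rose and 6 did not pass, shares of 30% lower and 10% higher against 15.2% and 8.27% of all genes (2 to 4 fell and 1 rose without single arrays), with a median of -0.20. Apart from Slc40a1, 2 of 9 fell. Meltf, which encodes melanotransferrin, an iron-binding surface protein, fell by 0.93 ± 0.09 (limma adjusted p = 0.00102), with 6.95, 6.88 and 6.93 in KO, 8.10, 8.06 and 7.84 in HET and 7.78, 8.0 and 7.78 in WT. Slc39a8, a metal importer of the ZIP family, stood at -0.24 (adjusted p = 0.0268), a call lost without KO 2, KO 3 or any WT array (adjusted p up to 0.0966). Slc22a17, a receptor of lipocalin 2, rose by 0.44 ± 0.08 (adjusted p = 0.00734), and Cybrd1, a ferric reductase of absorptive epithelia, missed the threshold at -0.28 (adjusted p = 0.0613).

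The ferritin subunit genes Fth1 (-0.08, limma adjusted p = 0.357) and Ftl1 (-0.14, adjusted p = 0.148) did not pass. Of 8 tested genes of storage and iron sensing 2 fell, 1 rose and 5 did not pass (1 to 4 fell and 0 or 1 rose without single arrays), and the median was -0.15. The shares were 25% lower and 12.5% higher, against 15.2% and 8.27% of all genes. Aco1, which encodes the iron regulatory protein 1 that binds iron-responsive elements when iron is scarce, fell by 0.39 ± 0.06 (limma adjusted p = 0.00436). Ncoa4, the receptor that sends ferritin to lysosomes, stood at -0.28 ± 0.06 (adjusted p = 0.0135), a call lost without WT 1 or WT 2 (adjusted p up to 0.0512). Pcbp1, an iron chaperone that loads ferritin, stood at 0.21 (adjusted p = 0.0335), a call lost without KO 1, KO 2 or any WT array (adjusted p up to 0.107). Fbxl5, the iron-sensing ubiquitin ligase subunit, missed the threshold at -0.17 (adjusted p = 0.0956).

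In the hepcidin axis 0 of 15 tested genes fell, 2 rose and 13 did not pass (2 or 3 rose without single arrays), with a median of 0.10. The share that rose was 13.3%, against 8.27% of all genes, and the count depended on the scaling, with 6 higher after quantile normalization, 5 after cyclic loess and 4 with array weights. Smad7, an inhibitory SMAD that dampens signalling by bone morphogenetic proteins, rose by 0.73 ± 0.08 (limma adjusted p = 0.00127), with 8.67, 8.64 and 8.88 in KO, 7.99, 8.0 and 7.96 in HET and 7.89, 8.06 and 8.05 in WT. Hamp2, a paralog of the hepcidin gene, rose by 0.38 ± 0.07 (adjusted p = 0.00679), and its near-identical copy could share its signal. Hamp2 was higher than WT on all HET arrays too (0.29, limma unadjusted p = 0.00267, adjusted p = 0.939), and KO did not pass against HET (0.09, adjusted p = 0.429), with arrays that overlapped. The hepcidin gene Hamp was too dim to be tested. Neo1 (0.21, adjusted p = 0.0773) and Smad6 (0.15, adjusted p = 0.101) did not pass.

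Of 16 tested genes of the mitochondrial list, members included, 3 fell, 0 rose and 13 did not pass (2 to 5 fell and 0 or 1 rose without single arrays), a share of 18.8% against 15.2% of all genes, and the median was -0.11. Apart from the members Slc25a37, Abcb10 and Glrx5, 2 of 13 fell, with a median of -0.08. Nfs1, the cysteine desulfurase that supplies the sulfur, fell by 0.42 ± 0.06 (limma adjusted p = 0.00249). Lyrm4, its stabilising partner, stood at -0.24 ± 0.06 (adjusted p = 0.0187), a call lost without KO 2, WT 1 or WT 2 (adjusted p up to 0.0745). Abcb8 (-0.20, adjusted p = 0.0709) and the assembly factor Isca1 (-0.14, adjusted p = 0.119) did not pass.

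Heme synthesis had 6 of 11 tested genes lower, 0 higher and 5 not past the test (4 to 8 fell without single arrays), with a median of -0.39. The share that fell was 54.5%, against 15.2% of all genes, and 5 of the 8 genes other than Abcb6, Slc25a38 and Tmem14c fell. Alongside Abcb6 these were the enzymes Alas2, Fech, Urod and Uros and the housekeeping first enzyme Alas1. Alas1, which is not erythroid, had 9.70, 9.89 and 9.82 in KO, 10.37, 10.33 and 10.24 in HET and 10.22, 10.28 and 10.13 in WT, a difference of -0.41 ± 0.07 (limma adjusted p = 0.00504). The enzyme genes Alas2 and Fech were highest among the KO arrays on KO 1 (10.45 and 10.38), as Slc25a37 and Tmem14c were. Urod, with a difference of -0.39 ± 0.09 (adjusted p = 0.0179), lost its call without KO 2, WT 1 or WT 3 (adjusted p up to 0.0716). Uros stood at -0.49 (adjusted p = 0.0322) and lost its call without KO 2, KO 3 or any WT array (adjusted p up to 0.106).

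Of 10 tested genes of heme traffic and breakdown 3 fell, 2 rose and 5 did not pass (1 to 3 fell and 1 or 2 rose without single arrays), with a median of -0.13. The shares were 30% lower and 20% higher, against 15.2% and 8.27% of all genes. Abcg2, an exporter of porphyrins, fell by 0.66 ± 0.11 (limma adjusted p = 0.00416). Blvrb, a biliverdin reductase abundant in red cells, stood at -0.66 ± 0.16 (adjusted p = 0.0177), a call lost without KO 2, KO 3 or WT 1 (adjusted p up to 0.0661). Flvcr2 stood at -0.42 (adjusted p = 0.0255), a call lost without KO 3, WT 1 or WT 2 and without WT 2 and KO 1 together. Lrp1, a receptor of heme bound to hemopexin, stood at 0.47 ± 0.11 (adjusted p = 0.0156), a call lost when WT 3 was left out (0.0503). Slc46a1, which can carry heme and folate, was the other rise (0.25, adjusted p = 0.0393), a call that held only when KO 2 or WT 3 was the array left out (adjusted p up to 0.129).

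**Figure D4:**
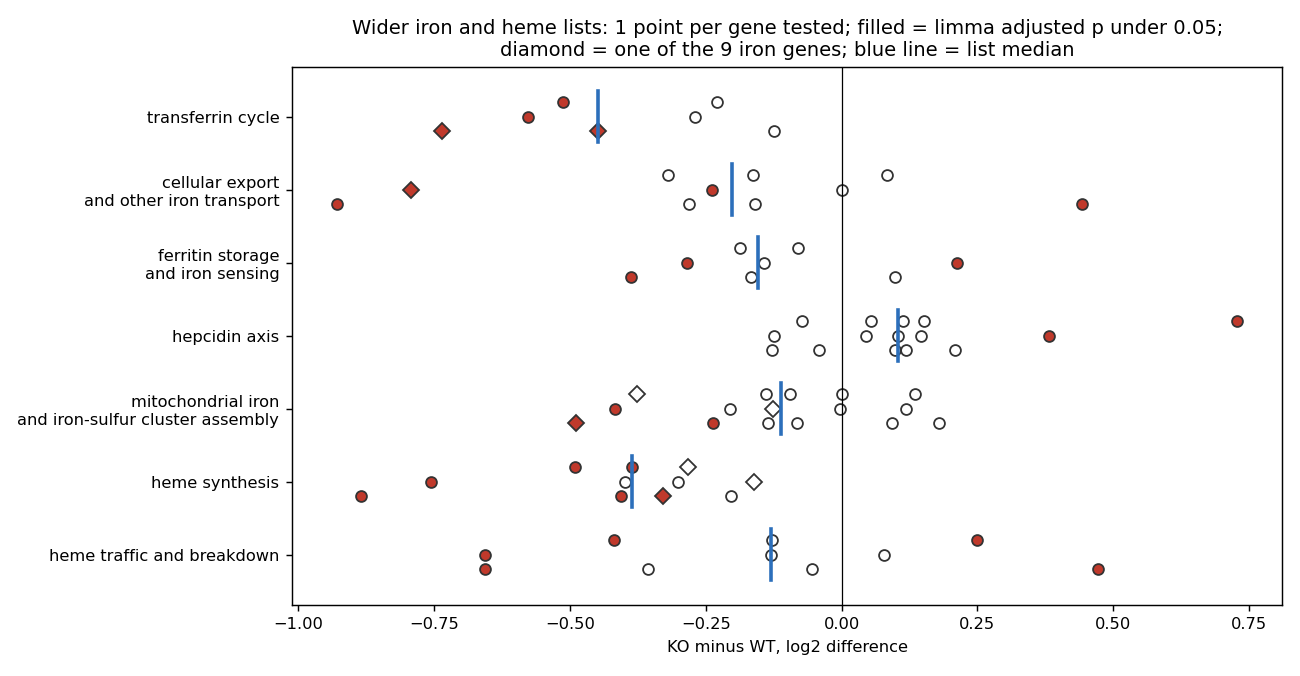
KO minus WT log2 difference (horizontal axis) of each tested gene in the 7 wider iron and heme lists. Filled points passed at a limma adjusted p under 0.05, diamonds are the iron genes described one by one, and blue lines are list medians, from -0.45 in the transferrin cycle to 0.10 in the hepcidin axis.

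For each member that passed in KO against WT, the genes with the nearest profile were found by the mean absolute difference over the 9 arrays of log2 values centred on each gene's mean. Slc40a1 lay nearest to Pecr, a peroxisomal enoyl-CoA reductase (0.02), Ky (0.04) and Habp2, a secreted serine protease (0.04). Slc11a2 lay nearest to Atp6ap1, a subunit that assists the vacuolar proton pump (0.03), Heatr5b (0.04) and Sdcbp (0.04). Tfrc had no equally close neighbour, with Car2, the carbonic anhydrase abundant in red cells, at 0.11, Tnfrsf14 at 0.12 and Padi2 at 0.13. Abcb10 lay nearest to the splicing regulator Mbnl1 (0.04), Ano1 (0.05) and the heme enzyme gene Uros (0.05). Abcb6 lay nearest to Hspa12b (0.03), the coatomer subunit gene Cope (0.04) and Recql (0.04). By correlation in place of distance, the 3 nearest were Dhx29, Eprs and Slc22a4 for Tfrc, Mpp5, Slco4c1 and Dpp4 for Slc11a2, and Atp6v0a4, Kynu and Pecr for Slc40a1. They were Add2, Epb42 and Blvrb for Abcb10 and Add2, Plek2 and Prmt7 for Abcb6. Pecr, for Slc40a1, was the only gene named by both measures.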

How the data were processed

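Total RNA (100 ng per sample) from yolk sacs was amplified, and 5.5 µg of sense cDNA was fragmented, labelled with biotin and hybridised, per the labels' protocols. RMA and Affymetrix Expression Console 1.2.1.20 are named in the submitters' processing notes, and the values the authors deposited are on the log2 scale, with a row for each probe set. For the array's annotation, the sources used here name no genome build.

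Of 28350 probe sets 21780 named 1 gene. Where a gene had several, the one brightest on average was kept. A gene was tested (13207 in all) if it exceeded an array's percentile 40, taken over its probe sets, on 3 or more arrays, and all 9 iron genes exceeded it on all 9 arrays. A single limma 3.58.1 model in R 4.3.3 held genotype over all 9 arrays, with Benjamini-Hochberg adjustment over all genes within a comparison and a threshold of 0.05. SE and 95% intervals are limma's. The model was tested on simulated data. The members and lists were chosen with earlier results of these data known. Genes named from the wider lists are the up to 4 with the smallest unadjusted p in KO against WT, beside the members; Uros, Slc46a1, Fth1, Ftl1, Hamp, Hfe, the markers and the neighbours by correlation were named after their values were seen. Arrays with the same replicate number did not deviate together as a rule (correlations from -0.26 to 0.42 over 9 pairs), so the replicate number was not used as a block. The pairs of replicate 3 were all positive, at 0.42 (WT with HET), 0.36 (WT with KO) and 0.18 (HET with KO). Pairs with different numbers ranged from -0.59 to 0.41. No arrays were identical.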

Additional observations from a re-analysis of the deposited data

How the results depend on the processing

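The results were recomputed under 26 alternatives, covering filters, probe set choice, scaling, priors, array weights, fewer arrays, covariates, a replicate block and thresholds. Over the 9 genes and 26 alternatives, 210 of 234 values in KO against WT kept direction and side of the threshold, 181 of 234 in KO against HET and 224 of 234 in HET against WT. Changes of filter, probe set choice, prior or threshold, the block and a fit of only the 2 genotypes compared left these log2 differences as they were. So did leaving out an array of the third genotype. Direction could not turn in these settings, so the tallies are no measure of robustness. In HET against WT all 9 genes were far from the threshold (limma adjusted p from 0.939 to 0.983). Slc40a1 lost its call in KO against WT only with the endodermal marker mean as a covariate. A change of at least 1.5-fold left 2 iron genes (Tfrc and Slc40a1) in KO against WT and 2 in KO against HET, with 608 and 567 of all genes. Array weights gave 8 iron genes and 5753 genes in KO against WT (Slc25a37 -0.59, Tmem14c -0.45, Glrx5 -0.20) and 6 genes in HET against WT. Without WT 2 and KO 1, 4 genes passed in HET against WT. With Eif2s3y as a covariate 3 iron genes and 1739 genes passed in KO against HET, and the HET minus WT values of Tfrc (0.042) and Slc40a1 (-0.034) changed sign. With Xist, 2016 genes passed in KO against WT and 2 iron genes and 843 genes in KO against HET, with Glrx5 at 0.045. The erythroid marker covariate left 1 iron gene and 1155 genes in KO against WT and 1 and 1620 in KO against HET. It turned Slc25a37 (0.17) and Tmem14c (0.10) in KO against WT, Slc25a37 (0.15), Tmem14c (0.13) and Glrx5 (0.050) in KO against HET, and Slc25a37 (0.022) in HET against WT. The endodermal covariate left 1 iron gene and 7 genes in KO against WT and 1 and 6 in KO against HET, and turned Abcb8 (0.023), Flvcr2 (0.11), Slc46a1 (-0.00115) and Snx3 (0.064). Median centring turned Slc40a1 in HET against WT (-0.020), and Glrx5 in KO against HET turned with quantile normalization (0.013) and cyclic loess (0.010). Leaving out 1 array gave 4 to 7 iron genes and 1669 to 3842 genes in KO against WT, 3 to 6 and 1508 to 3149 in KO against HET, and 0 and 0 to 5 in HET against WT. Counts of genes moved by over 1.5 times without WT 1 (1669) or WT 2 (1763) in KO against WT and without HET 1 (1508) or HET 2 (1557) in KO against HET, where the iron genes were 3 without KO 2 or HET 3. Over single arrays left out the HET minus WT values ranged from -0.21 to 0.051 for Tfrc, from -0.053 to 0.10 for Slc40a1 and from -0.20 to 0.010 for Slc25a37, and Glrx5 in KO against HET from -0.062 to 0.0083. With a replicate block, 5 iron genes fell in KO against WT, and 5 in KO against HET, where Slc25a38 lost its call (adjusted p = 0.0518); counts over all genes were 3131 and 2853. The causes were not tested.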
